A study of Mus musculus with 24 samples.

Results

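The 4 genes described here belong to the mammalian chitinase family: Chil4, Chil3, Chil1 and Chia1, followed in RNA of sorted mouse airway epithelial cells. They were listed by name, selected on their RNA levels across groups and batches in earlier results of these data, and are 4 of the 35855 genes matched in the deposited tables. RNA was measured in 24 libraries, each made from 1000 cells sorted from the trachea of naïve wild-type (WT) female mice, which the series title gives as C57BL/6. By the labels there are 3 groups, each of 8 libraries. BCAM, or basal cell adhesion molecule, is a laminin-binding surface protein, and the groups are BCAM high cells, BCAM low cells and differentiated epithelial cells. In each group, libraries numbered 1 to 5 are labelled batch 1 and those numbered 6 to 8 are labelled batch 2. The sources used here do not give the meaning of the batch label, the age of the mice, the gate of the differentiated cells or whether cells of several mice were pooled. No source states that the libraries of a group came from separate animals, so the p-values below measure the spread between these libraries, which may be technical. No label says whether same-numbered libraries of the 3 groups share a source, and the batch p-values take all libraries as independent.

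The family shares the glycosyl hydrolase 18 fold. Chia1, acidic mammalian chitinase, is a secreted enzyme that cuts chitin, the polymer of insect and fungal walls, whereas Chil1 (also called BRP-39), Chil3 (Ym1) and Chil4 (Ym2) bind sugars without cutting chitin. Chil4 and Chil3 are known in the mouse lung as products of epithelium and macrophages that accumulate in type 2 immune responses, in which interleukin-13 (IL-13) acts on the epithelium through the receptor chain Il4ra and the transcription factor Stat6.

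Library totals lay between 1824619 and 4440072 estimated counts. Levels below are CPM, counts scaled to library size with TMM factors, unless TPM, the length-scaled unit of the deposited tables, is named. Bcam RNA itself overlapped between the BCAM groups in batch 1, with lowest values of 324 CPM in BCAM high and 224 CPM in BCAM low and medians of 458 and 384 CPM. In batch 2 it was 515 CPM or more in BCAM high and 430 CPM or less in BCAM low. Basal markers set the BCAM groups apart from differentiated cells in both batches: 10 basal genes summed to 5444 CPM or more in every BCAM library and to 2498 or less in every differentiated library. The differentiated libraries differed by batch. Their 12 secretory genes summed to between 303834 and 440424 CPM in batch 1 and to between 14506 and 94742 in batch 2, Bcam ran from 109 to 252 CPM in batch 1 and from 458 to 907 in batch 2, and 8 thyroid genes summed to between 13856 and 26060 CPM in batch 1 and to between 49690 and 117255 CPM in batch 2. Secretory genes did not set the groups apart in batch 2. Their sums in differentiated 6 and 7, 22226 and 14506 CPM, lay below every BCAM library, of which the lowest had 35534 CPM, while that of differentiated 8, 94742 CPM, lay above all. In batch 2, Bcam of differentiated cells also overlapped that of BCAM high. The part of the differences between batches in the batch comparisons below was not tested. In pools of sorted cells, fewer cells that make an RNA and less RNA per cell cannot be told apart.

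Chil4 (ENSMUSG00000063779.6) lies at chr3:106201490-106219507 on the minus strand of build GRCm38, Chil3 (ENSMUSG00000040809.10) at chr3:106147554-106167564 on the minus strand, and Chia1 (ENSMUSG00000062778.12) at chr3:106113229-106132120 on the plus strand, by GENCODE release M21. Chil1 (ENSMUSG00000064246.10) lies apart at chr1:134182176-134190181 on the plus strand. The coding sequences of Chil4 and Chil3 were 95.4% identical, with 55 differing bases over 1194 aligned, while every other pair of members was 60.1% to 76.0% identical. Reads were pairs of 38 bases, so the assignment of a read to Chil4 or Chil3 rests on where it falls. The 90 coding bases with the most differences run from coding base 827 to 916 and are shown because they tell the 2 genes apart. They lie in exon 8 of 11, except for the last base, which opens exon 9; the exon 8 portion is chr3:106203662-106203750 in Chil4 and chr3:106149712-106149800 in Chil3. Capitals mark the 12 positions that differ.
Chil4: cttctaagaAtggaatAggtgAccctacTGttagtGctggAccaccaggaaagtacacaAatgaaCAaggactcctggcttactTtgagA
Chil3: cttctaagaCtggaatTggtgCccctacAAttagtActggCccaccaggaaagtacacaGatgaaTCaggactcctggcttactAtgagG

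Over other stretches the genes cannot be separated by sequence. The longest identical coding stretch, coding bases 987 to 1122 of Chil4-201, covers the end of exon 9 (chr3:106202742-106202790) and the start of exon 10 (chr3:106202574-106202660), and is 136 bases long.
Chil4 and Chil3: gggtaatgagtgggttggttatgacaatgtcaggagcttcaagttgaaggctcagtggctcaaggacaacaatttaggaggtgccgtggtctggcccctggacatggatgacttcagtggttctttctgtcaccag
Of all 38-base windows of the full-length Chil4 transcript, Chil4-201, 28.6% also occur in the transcript of another gene, and 25.5% occur in Chil3. For Chil3-201 the shared proportion was 38.8%, for Chia1-201 it was 0.73%, and Chil1 had no shared window. Shared windows of Chil4 and Chil3 fall in Chil3 or Chil4, in Chia1 and in the predicted gene Gm6522.

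**Figure D1:**
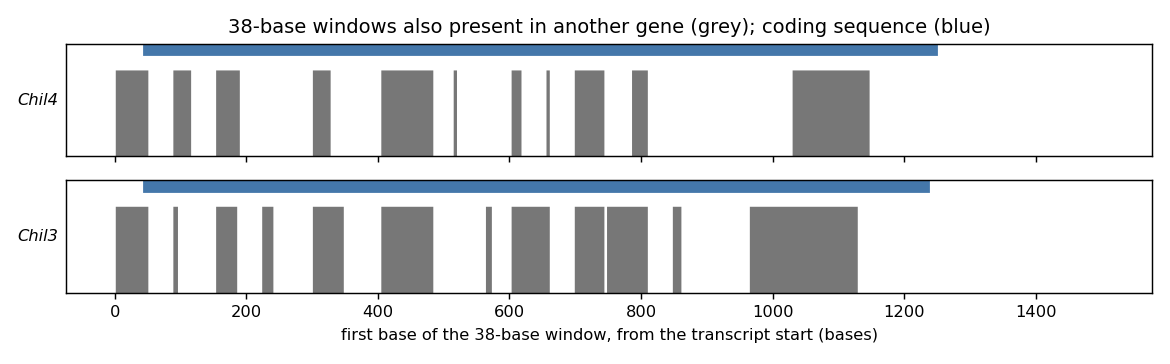
Positions of 38-base windows of the Chil4-201 and Chil3-201 transcripts (1539 bases each, first base of the window on the x axis) that also occur in a transcript of another gene (grey), with the coding sequence in blue. Shared windows take up 28.6% of Chil4-201 and 38.8% of Chil3-201, and stretches that occur in 1 gene lie between them.

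Chil4, also known as Ym2, was close to absent in batch 1 and among the most abundant RNAs in batch 2. In batch 1 the BCAM high libraries 1 to 5 had 0, 0, 0.979, 0 and 179 CPM, and in batch 2 libraries 6 to 8 had 29890, 29128 and 32061 CPM. In BCAM low the values were 2.27, 0.946, 0, 0 and 49.0 CPM in batch 1 and 44335, 50917 and 51563 CPM in batch 2. In differentiated cells they were 6.91, 0, 8.44, 0 and 110 CPM in batch 1 and 2790, 3291 and 11983 CPM in batch 2. Each batch 2 library of every group thus lay above every batch 1 library of any group: the lowest value of batch 2 was 2790 CPM and the highest of batch 1 was 179 CPM. Over the 8 libraries of a group the median was 90.1 CPM in BCAM high cells, 25.6 CPM in BCAM low cells and 59.1 CPM in differentiated cells. Each of these medians lies midway between library 5 and the next highest batch 1 value, so it describes the level of neither batch.

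The mean Chil4 level of batch 2 was 30360 ± 1522 CPM for BCAM high, 48939 ± 4000 CPM for BCAM low and 6021 ± 5169 CPM for differentiated cells (SD, n = 3). The batch 1 means of the same groups were 36.0 ± 80.0, 10.4 ± 21.6 and 25.0 ± 47.5 CPM (SD, n = 5). On the length-scaled TPM values, Chil4 ranked between 3 and 5 among all genes in the 6 BCAM libraries of batch 2 and between 15 and 39 in the 3 differentiated ones. Of all estimated counts of a batch 2 library it took 3.35% to 3.87% among BCAM high, 3.88% to 5.63% among BCAM low and 0.201% to 1.14% among differentiated libraries. Transcript Chil4-201 held 99.9% of the gene's counts. The fitted difference between batches was 10.14 on the log2 scale (SE 1.44), rank 1 of 12211 genes tested. It carries no test, since Chil4 was chosen with its values known. The same difference was 14.25 on the log2 scale without the libraries numbered 5.

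Within batch 1 the Chil4 signal was carried by the libraries numbered 5. In each group the other 4 libraries held 4.21 (BCAM high), 12.4 (BCAM low) and 28.0 (differentiated) Chil4 counts together, whereas library 5 held 747, 221 and 201 counts. The highest of those other libraries had 8.44 CPM. The libraries numbered 5 were in this way between batch 1 and batch 2 in all 3 groups.

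**Figure D2:**
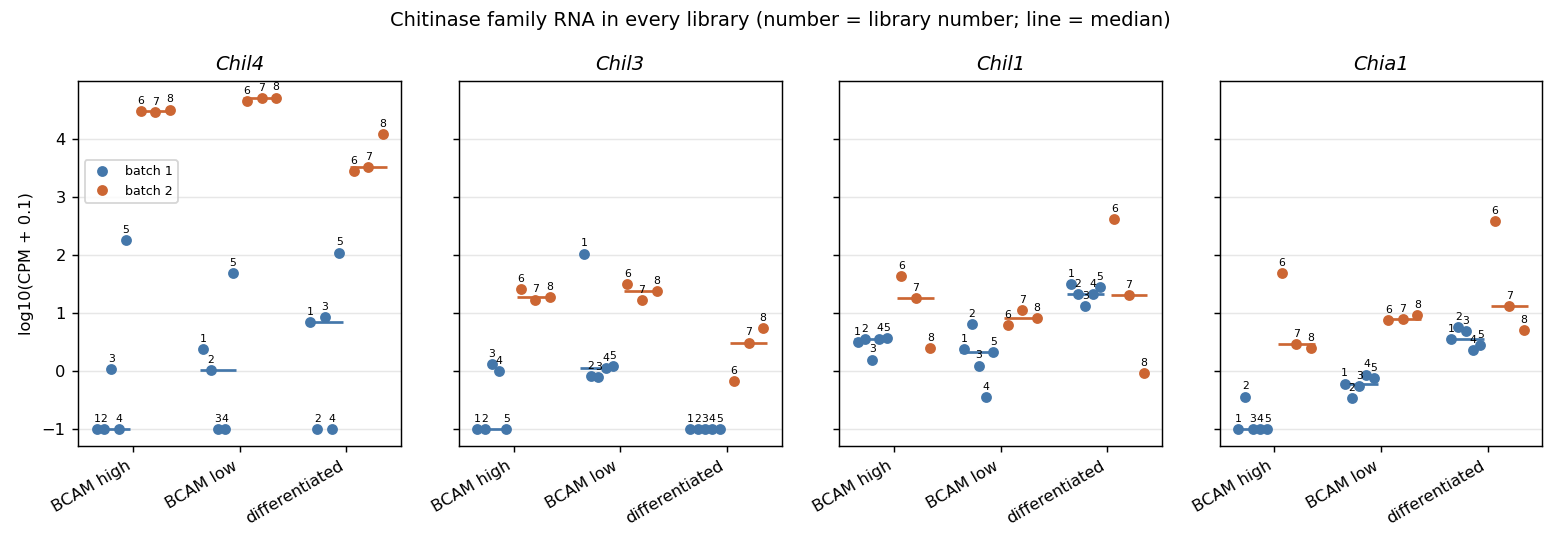
Level of each member in every library, as log10(CPM + 0.1), by group and batch; each point is 1 library labelled with its number, and lines are medians. Chil4 in batch 2 lies between 2790 and 51563 CPM in all 3 groups, and its highest batch 1 value in each group is that of library 5.

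The order of Chil4 across groups depended on batch and unit. In batch 2, BCAM low libraries were all above BCAM high and BCAM high all above differentiated on CPM. Of all tested genes, 12.4% had BCAM low above BCAM high in every library of that batch, 20.9% had BCAM high above differentiated and 16.9% had BCAM low above differentiated. On the deposited TPM, BCAM high (25525, 26658 and 28093) and BCAM low (25033, 34720 and 42316) overlapped, and both stayed above differentiated (1221, 2149 and 7598). In batch 1 the groups overlapped on both scales. In the fit over both batches the Chil4 difference of BCAM high from BCAM low was 0.47 on the log2 scale (SE 1.36), and it was -0.69 (SE 0.51) in batch 2 alone and -1.45 without BCAM high 5. The differences from differentiated, 0.97 (SE 1.36) for BCAM high and 0.50 (SE 1.51) for BCAM low, were also smaller than their errors over both batches; without BCAM high 5 they were -1.85 and -0.40, and without BCAM low 5 the second was -0.12. In batch 2 alone they were 2.34 (SE 0.53) and 3.03 (SE 0.54).

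Chil3, also known as Ym1 and best known as a product of mouse macrophages, was low in every group. BCAM high libraries had 0, 0, 1.22, 0.881 and 0 CPM in batch 1 and 25.4, 17.0 and 18.7 CPM in batch 2. BCAM low libraries had 106, 0.709, 0.686, 1.02 and 1.11 CPM in batch 1 and 31.8, 16.7 and 23.7 CPM in batch 2. All 5 differentiated libraries of batch 1 had 0, and those of batch 2 had 0.565, 2.99 and 5.35 CPM. Batch 2 was above batch 1 without overlap in BCAM high and in differentiated, and not in BCAM low, where library 1 was the highest of all 24.

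The Chil3 counts of batch 2 were a small and narrow proportion of the Chil4 counts, from 0.26 to 0.878 per 1000 Chil4 counts with a median of 0.584 over the 9 libraries. In BCAM low 1 the proportion was the other way round, with 418 Chil3 counts, all on Chil3-201, beside 8.79 Chil4 counts. In batch 2, the short transcript Chil3-203, of 174 bases, held 15.4% of the Chil3 counts and 59.5% of its summed TPM, so the TPM of Chil3 rests mainly on that short transcript. How far reads of Chil4 were assigned to Chil3 was not tested. Chil5, a further relative at chr3:106016919-106032814, stood at 0.378 to 2.63 per 1000 Chil4 counts in batch 2, and Gm6522 at 0 to 0.51. Chil4 shared no window of 31 or 38 bases with Chil5, and it shared windows of both lengths with Gm6522.

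In BCAM low 1, the library with the highest Chil3, 16 macrophage genes summed to 236 CPM and 15 of them were detected. The sum was exceeded in 1 of the 24 libraries, BCAM low 4, at 303 CPM, where Chil3 was 1.02 CPM. The BCAM low libraries of batch 1 ran from 94.9 to 303 CPM and those of batch 2 from 38.6 to 89.1 CPM, and in BCAM high the ranges of batch 1 (59.0 to 101 CPM) and batch 2 (43.3 to 77.8 CPM) overlapped. In differentiated cells they were 51.3 to 122 CPM and 60.1 to 215 CPM. In BCAM low 1 the receptor Csf1r, which macrophages use for colony-stimulating factor, had 21.2 CPM, and the 1 listed gene at 0 was Siglecf, a marker of alveolar macrophages. The sum of 12 neutrophil and eosinophil genes was also highest in that library, at 27.0 CPM with 5 genes detected, and ran from 0 to 16.5 CPM in the other 23. The part of these cells in the Chil3 values was not tested.

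The Chil3 difference of BCAM high from BCAM low was -3.08 on the log2 scale (SE 1.17) and rested on library BCAM low 1, without which it was -0.55. The Chil3 difference of BCAM low from differentiated was 5.36 (SE 1.41) on the log2 scale and 3.21 without BCAM low 1, and that of BCAM high from differentiated was 2.28 (SE 1.39). The batch difference was 2.78 (SE 1.08), rank 49 of 12211, and 5.12 without BCAM low 1.

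Chil1, the mouse orthologue of YKL-40, was higher in differentiated cells than in both BCAM groups on CPM in batch 1, and the groups overlapped in batch 2. In batch 1 it had 3.03, 3.42, 1.47, 3.53 and 3.60 CPM in BCAM high and 2.27, 6.38, 1.14, 0.255 and 1.99 CPM in BCAM low. The differentiated libraries of batch 1 had 31.7, 21.0, 13.2, 21.1 and 27.8 CPM, above every BCAM library of that batch. Of all tested genes, 14.3% lay so against BCAM high and 12.2% against BCAM low. On TPM the lowest of these differentiated libraries, at 6.03, lay above BCAM high (5.70 or less) and below the highest BCAM low library, at 8.58. In batch 2 the groups overlapped: BCAM high had 43.6, 17.7 and 2.37 CPM, BCAM low 6.18, 11.1 and 8.07 CPM, and differentiated 411, 20.1 and 0.823 CPM. Library 6 was the highest of its group in both BCAM high and differentiated. Chil1 was the one member for which no group had batch 2 above batch 1 in every library.

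The transcripts behind Chil1 also differed between batches. In batch 1, Chil1-201 held 35.9% of the Chil1 counts, Chil1-208 held 27.2% and the retained-intron transcript Chil1-204 held 27.3%. In batch 2, Chil1-201 held 79.9%, Chil1-208 13.7% and Chil1-204 3.48%. The batch 1 values are shares of 311 estimated counts over 15 libraries and the batch 2 values of 1029 over 9 libraries. Of the latter, 727 counts came from library differentiated 6.

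Chia1, the active chitinase, was at or below 0.765 CPM in every BCAM library of batch 1. BCAM high had 0, 0.263, 0, 0 and 0 CPM in batch 1 and 48.6, 2.83 and 2.37 CPM in batch 2. BCAM low had 0.505, 0.236, 0.458, 0.765 and 0.665 CPM in batch 1 and 7.50, 7.72 and 9.08 CPM in batch 2. Differentiated libraries had 3.46, 5.57, 4.75, 2.22 and 2.73 CPM in batch 1 and 383, 13.2 and 4.94 CPM in batch 2. Batch 2 lay above batch 1 without overlap in both BCAM groups and overlapped in differentiated, where library 8 was within the range of batch 1.

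In the fit over both batches Chil1 and Chia1 were lower in the BCAM groups than in differentiated cells, while in batch 2 the groups overlapped and differentiated 8 was below every BCAM low library for both genes. For Chil1 the log2 differences from differentiated were -2.82 (SE 0.72) for BCAM high and -3.59 (SE 0.78) for BCAM low, and for Chia1 they were -3.16 (SE 0.87) and -3.66 (SE 0.97). In batch 2 alone the differences of BCAM high were -2.75 (SE 1.77) for Chil1 and -2.88 (SE 1.82) for Chia1. Without differentiated 6 those of BCAM high over both batches were -1.83 and -2.00. Without BCAM high 6 the Chia1 difference of BCAM high from differentiated was -5.51, and without differentiated 6 that of BCAM low was -2.29. The differences of BCAM high from BCAM low, 0.78 (SE 0.81) for Chil1 and 0.50 (SE 1.01) for Chia1, were within their errors, and that of Chia1 was -1.91 without BCAM high 6. The batch difference was 5.17 (SE 0.74), rank 6 of 12211, for Chia1 and 2.48 (SE 0.60), rank 74, for Chil1. Without differentiated 6 the batch differences were 4.16 and 1.58.

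All 4 members passed the filter on low counts. Read over the groups, 3 of the 4 members had batch 2 above batch 1 in every BCAM high library, where 9.82% of all tested genes did so. In BCAM low 2 of 4 did, beside 9.89% of all tested genes, and in differentiated 2 of 4, beside 10.9%. Chil4 alone of the members did so within each of the 3 groups, as did 0.672% of tested genes. It was also 1 of the 13 genes, 0.106% of those tested, whose 9 batch 2 libraries all lay above all 15 batch 1 libraries. The other 12 included Clca1, a secreted protein of mucous cells, and Nr1d2 and Dbp, transcription factors of the circadian clock. As the members were chosen with these values known, nothing is read from the counts.

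In batch 2, Chil4 made up almost all of the family's RNA per length. Its TPM was 78.6% of the summed TPM of the 4 members in differentiated 6 and at least 98.8% in each of the other 8 libraries of that batch. In batch 1 the summed TPM of the 4 members ran from 2.28 to 138, with the highest value in BCAM high 5, and in batch 2 from 1552 to 42374.

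The region before the start of the 2 most similar genes was compared because the fitted batch difference was above 0 for both Chil4 and Chil3. For Chil3 the batches overlapped in BCAM low, and how far its batch 2 counts are reads of Chil4 was not tested. Promoter sequences came from RefSeq (GRCm38.p6) and were found for all 4 members. The 250 bases before the start of Chil4 and of Chil3 aligned over 221 bases with 91.0% identity. Each holds 1 match to TTCNNNGAA, a general form of the STAT binding motif, which reads the same on both strands; it begins 200 bases before the start in Chil4 and 172 bases before it in Chil3 and is in capitals. The Chil4 sequence is chr3:106219480-106219729 and that of Chil3 chr3:106167565-106167814, both on the minus strand. The last 28 bases of the former lie inside the GENCODE gene, whereas the latter ends right beside it. The 2 distances of the motif are thus counted from starts placed differently relative to GENCODE.
Chil4: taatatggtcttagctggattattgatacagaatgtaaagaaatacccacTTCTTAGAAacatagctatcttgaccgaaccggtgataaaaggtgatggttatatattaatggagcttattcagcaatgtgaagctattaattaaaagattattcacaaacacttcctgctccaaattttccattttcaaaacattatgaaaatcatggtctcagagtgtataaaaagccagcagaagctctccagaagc
Chil3: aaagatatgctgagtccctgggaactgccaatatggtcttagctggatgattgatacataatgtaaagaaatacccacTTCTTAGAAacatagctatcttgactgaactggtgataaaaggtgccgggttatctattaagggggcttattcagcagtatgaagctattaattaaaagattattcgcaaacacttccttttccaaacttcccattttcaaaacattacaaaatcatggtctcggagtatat
The motif occurred in 7.02% of the 32851 promoter windows of the same length, and the form with 4 free bases, TTCNNNNGAA, which the search kept apart, in 5.85%. The windows of Chil1, Chia1 and Chil5 held neither, and that of Retnla, an IL-13 response gene, held 1 match to TTCNNNNGAA. A match is a description of the letters and not a binding site.

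The genes of the same pathway were described from 5 lists of 56 genes, of which 33 were tested, and calls are from edgeR's quasi-likelihood test with Benjamini-Hochberg adjustment over all 12211 genes at 0.05. Between batches 18 of the 33 were called, 14 higher and 4 lower in batch 2, beside 21.4% of all tested genes (11.8% higher, 9.61% lower). The median log2 difference of the 33 was 0.56, beside 0.0077 over all genes. Between the groups the called numbers were 10 of 33 for BCAM high against BCAM low (1 higher, 9 lower, beside 7.02% of all genes, 2.43% higher and 4.59% lower), 21 for BCAM high against differentiated (5 higher, 16 lower, beside 41.3%, 19.4% higher and 22.0% lower) and 18 for BCAM low against differentiated (6 higher, 12 lower, beside 33.5%, 16.3% higher and 17.1% lower). The lists were written with earlier results of these data known.

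Of the genes listed for the IL-13 response of airway epithelium, several of them products of mucous cells, 13 of 20 were tested. The list was not restricted to genes that IL-13 induces. In the batch difference fitted over all 3 groups together, 8 of the 13 rose in batch 2 and 1 fell. The other 4 (Alox15, Arg1, Foxa1 and Foxa3) were not called. Over all genes 11.8% were higher and 9.61% lower, and the median of the 13 was 2.10 on the log2 scale. In BCAM low the summed gland genes ran from 2944 to 6360 CPM in batch 1 and from 9519 to 16636 CPM in batch 2, and the summed secretory genes from 42702 to 65841 and from 76579 to 87491 CPM. In BCAM high both sums overlapped between batches. Their part in these changes was not tested. Clca1, a secreted protein of mucous cells, had 0 to 12.7 CPM in batch 1 and 772 to 912 CPM in batch 2 of BCAM high, 1.78 to 45.2 and 3517 to 4213 CPM in BCAM low, and 61.1 to 242 and 594 to 3130 CPM in differentiated. Its 9 batch 2 libraries were all above its 15 batch 1 libraries, and it rose by 6.73 on the log2 scale (SE 0.76, edgeR adjusted p = 3.61e-06).

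Retnla, a small secreted protein of type 2 responses, rose by 5.34 (SE 0.66, edgeR adjusted p = 9.68e-06), from 0 to 1.47 CPM in batch 1 to 13.4 to 125 CPM in batch 2 of BCAM high, and from 0 to 3.66 CPM to 106 to 152 CPM in BCAM low. In differentiated cells its ranges overlapped, with 1.11 to 29.0 CPM in batch 1 and 26.4 to 517 CPM in batch 2. Muc5ac, a gel-forming mucin, rose by 3.73 (SE 0.63, edgeR adjusted p = 2.68e-04), and 8 of its 9 batch 2 libraries were above the batch 1 median of their group. The other genes of this list that rose were Itln1, a secreted lectin (3.67 on the log2 scale), the cadherin Cdh26 (3.09), Fcgbp, a mucus protein (2.96), Agr2, a folding factor for mucins (1.20) and Spdef, a transcription factor of mucous cells (1.01). Spdef lost its call in 15 of the alternative fits and Agr2 in 7. Serpinb2, an inhibitor of plasminogen activators, fell by 3.39 on the log2 scale (SE 0.44, edgeR adjusted p = 1.42e-05).

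**Figure D3:**
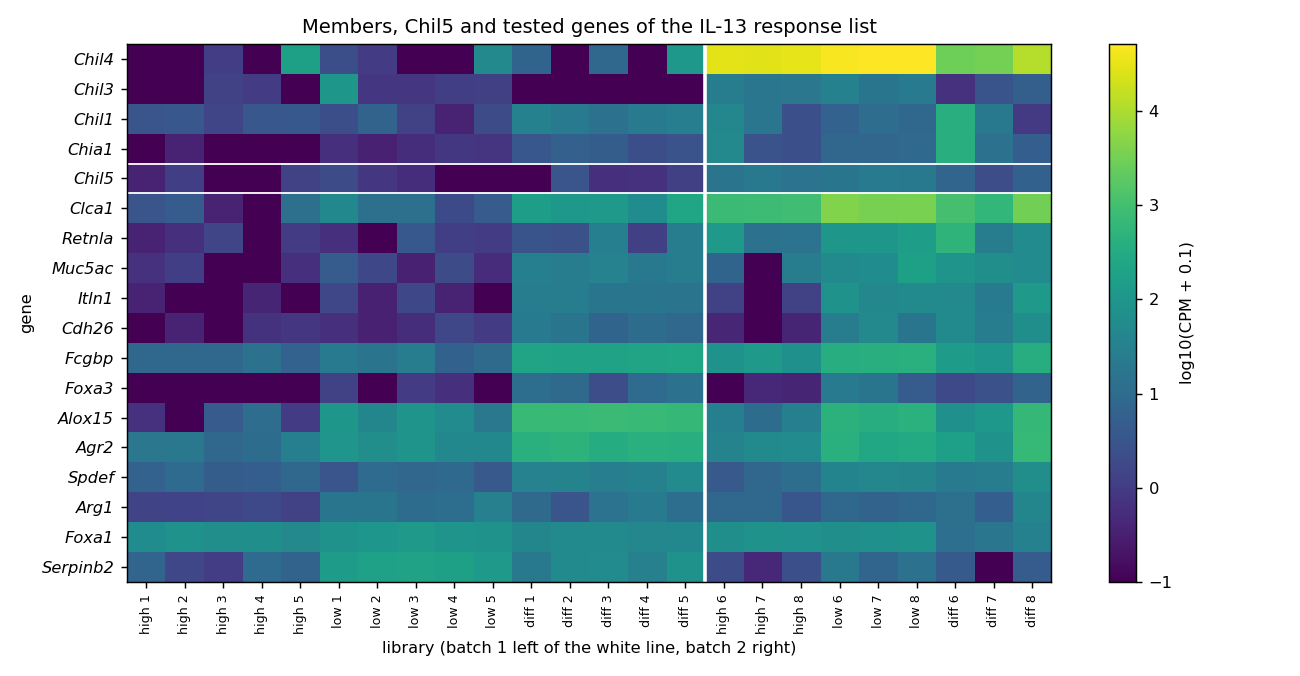
Level of the 4 members, Chil5 and the 13 tested genes of the IL-13 response list in each library, as log10(CPM + 0.1), with batch 1 left and batch 2 right of the white line. Chil4 and Clca1 change along the batch line in all 3 groups, with the lowest batch 2 values at 2790 and 594 CPM.

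The receptor chain and transcription factor of IL-13 were not called between batches. Il4ra had 41.0 to 75.4 CPM in batch 1 and 30.9 to 66.2 CPM in batch 2 (log2 difference -0.05, SE 0.09), Stat6 had 73.7 to 109 and 71.0 to 119 CPM (-0.04, SE 0.09), and Il13ra1 gave -0.13 (SE 0.16); none was called by edgeR (adjusted p = 0.766, 0.831 and 0.616). Of the 10 tested signalling genes, Socs1, an inhibitor of cytokine receptors (1.47 on the log2 scale), and the kinases Jak2 (0.79) and Jak1 (0.64) rose in batch 2 and none fell. Il13 had 0 counts in all 24 libraries and Il4 did not pass the filter.

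Among the relatives, Chil5 rose by 4.22 in batch 2 (SE 0.52, edgeR adjusted p = 1.60e-06), from 3.09 CPM or less in batch 1 to between 2.13 and 21.4 CPM in batch 2. It shares sequence with Chil3 at a window of 31 bases and not at 38, and with Chil4 at neither. Chid1, a lysosomal relative, and Ctbs, which trims chitobiose from glycans, were not called between batches (0.12, SE 0.15, and 0.13, SE 0.23). Chit1, the other active chitinase, did not pass the filter, with 77 counts over all 24 libraries. Of the proteins that bind members of the family, Ager, the receptor for advanced glycation end products, rose in batch 2 (3.30), and Lgals3 (galectin-3, -1.24), Sdc1 (-0.84) and Cd44 (-0.32) fell. In BCAM high, Ager overlapped between batches (0.734 to 4.56 and 1.78 to 317 CPM), and in differentiated cells it did not (185 to 294 and 460 to 1041 CPM). Leaving out 1 library took its difference as low as 2.06. Over all libraries Ager was among the 5 genes most like Chil1 (r = 0.73). Ager is also in the list of alveolar genes summed below, and the part of alveolar cells in its values was not tested. The Cd44 call was lost without differentiated 6 and without differentiated 8, its difference was 0.10 on the TPM scales, and 3 of its 9 batch 2 libraries were above the batch 1 median of their group. Il13ra2, a receptor of IL-13 and of Chil1, did not pass the filter. Among chitin-sensing genes and alarmins, 2 of 10 were tested: Reg3g, an antimicrobial lectin, rose (2.54), Tlr2 was not called (0.27, SE 0.37), and Il33 did not pass the filter.

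**Figure D4:**
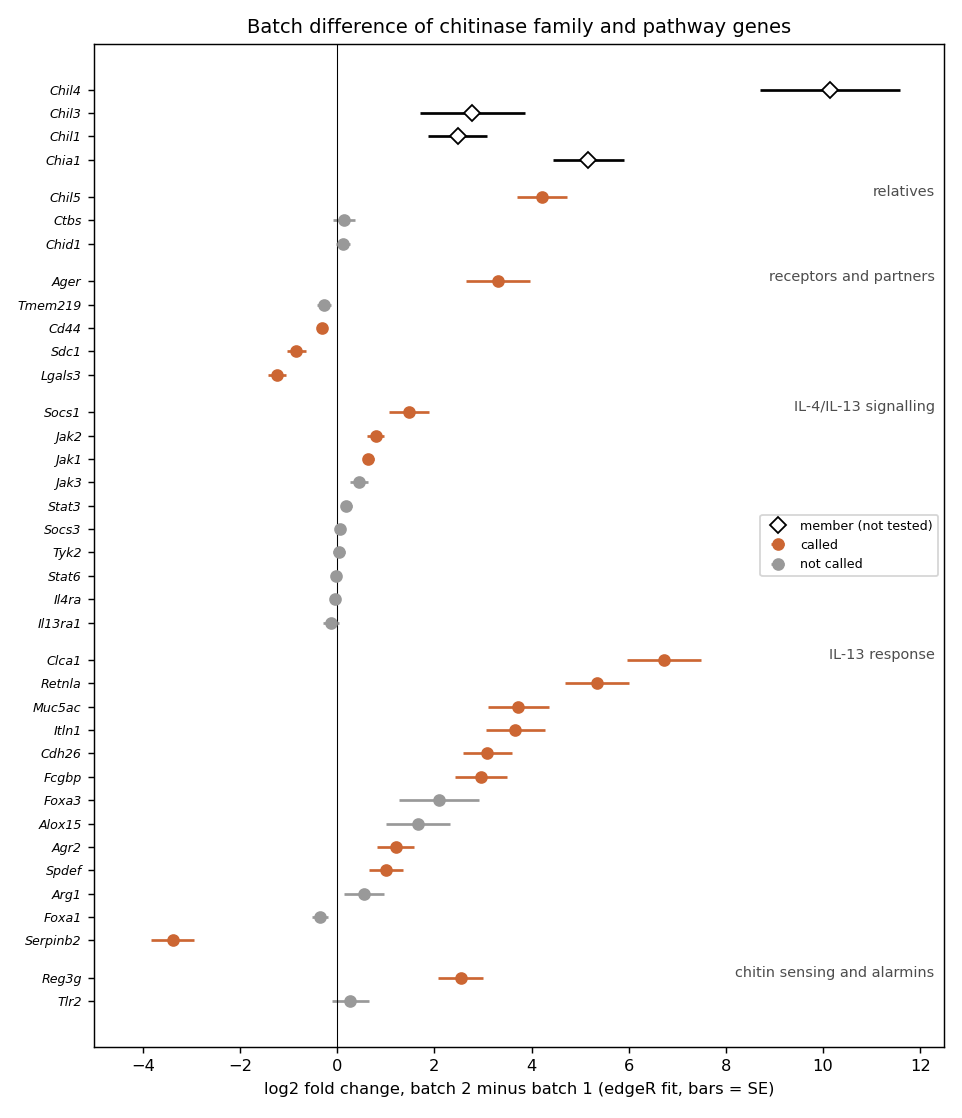
Log2 difference of batch 2 from batch 1 for the members and the tested pathway genes, with bars of 1 SE from the edgeR fit over 24 libraries. Chil4 stands at 10.14 and Clca1 at 6.73, whereas Il4ra and Stat6 lie at -0.05 and -0.04.

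Across the groups, most genes of the IL-13 response list were higher in differentiated cells than in BCAM high. All 13 tested genes were called between BCAM high and differentiated, 12 lower in BCAM high and 1, Foxa1, higher (median -3.92, beside 0.024 over all genes). Of all tested genes 22.0% were lower and 19.4% higher. In batch 2 alone 7 of the list were called, and the called genes among all tested were 3664, beside 5044 over both batches. Against BCAM low, 7 of the 13 were lower in BCAM high and 0 were higher, beside 4.59% lower and 2.43% higher over all genes. The largest of these differences were Itln1 (log2 difference -5.05, SE 0.95), Foxa3 (-5.02, SE 1.10), Serpinb2 (-4.62, SE 0.49), Cdh26 (-4.29, SE 0.81) and Alox15 (-4.13, SE 0.78), with edgeR adjusted p from 3.36e-06 to 0.00471. Each of the 5 calls was lost in 1 alternative: Itln1 and Cdh26 in batch 1 alone, Alox15 and Serpinb2 in batch 2 alone, and Foxa3 with limma on log2(TPM + 1). Between BCAM low and differentiated 2 were higher and 7 lower, beside 16.3% higher and 17.1% lower over all genes. In batch 2 alone 1 of the list was called, and the called genes among all tested were 2221, beside 4086 over both batches. In that batch the BCAM low libraries reached the differentiated range: Muc5ac had 51.2 to 174 CPM in BCAM low and 57.6 to 92.6 CPM in differentiated, and Spdef 37.1 to 44.6 and 20.9 to 65.8 CPM. Chil4 had its lowest batch 2 levels in differentiated cells.

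Of the other pathway genes, Socs3, an inhibitor of STAT3 signalling, was the 1 gene higher in BCAM high than in BCAM low (0.76, SE 0.12, edgeR adjusted p = 2.23e-04, 8 of 8 same-numbered comparisons). Lgals3 was lower in BCAM high (-0.81, SE 0.21, edgeR adjusted p = 0.0194, 8 of 8), a call lost in 6 alternatives, among them without BCAM low 6. Same-numbered libraries are not known to be pairs, so the counts of 8 add no support to these p-values. Il4ra was lower in both BCAM groups than in differentiated cells (-0.52 and -0.54, edgeR adjusted p = 2.40e-04 and 2.78e-04), and both calls were lost in batch 2 alone. On the TPM scales its difference of BCAM high from differentiated was 0.11 and 0.10, and the BCAM low call was lost. Jak3 (1.73 and 1.15), Sdc1 (2.09 and 1.67) and Foxa1 (0.99 and 1.27) were higher in both BCAM groups than in differentiated cells.

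The genes most like each member were taken over the 24 libraries by Pearson's r of log2 CPM, as a description, since the libraries share groups and batches. For Chil4 they were Nr1d2 (r = 0.91), Pla2g4c, a cytosolic phospholipase (0.88), Per3, a clock gene (0.86), Fer1l6 (0.85) and Exoc2 (0.85). Pla2g4c had 0 to 1.53 CPM in batch 1 and 181 to 229 CPM in batch 2 of the BCAM groups, and 2.82 to 21.4 CPM in batch 2 of differentiated cells. Nr1d2 had 14.4 to 35.0 CPM in the BCAM libraries of batch 1 and 82.7 to 156 CPM in those of batch 2. After the mean of group and batch was subtracted, the nearest were Spsb1 (r = 0.85), Tsc22d3 (0.80), known as a glucocorticoid-induced gene, and Tsku (0.70). Spsb1 was highest in library 5 among the batch 1 libraries of each group, with 111, 48.7 and 74.2 CPM, and so was Tsc22d3, with 1211, 768 and 308 CPM.

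For Chil3 the likeness was weaker, led by St6galnac2, a sialyltransferase (r = 0.81), and after subtraction by Dgat2, an enzyme of triglyceride synthesis (0.80). Chil4 and Chil3 had r = 0.66 over all libraries and 0.02 after the mean of group and batch was subtracted. Chil1 and Chia1 kept theirs, with 0.78 and 0.79. The gene most like Chil1 was Sftpa1, a surfactant protein (0.84), and after subtraction Sftpa1 was also nearest to both Chil1 (0.82) and Chia1 (0.91). Over all libraries the gene most like Chia1 was Retnla (0.87).

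Surfactant genes stood beside the extreme values of Chil1 and Chia1. A list of 12 alveolar genes, written after the data had been seen, summed to 8238 CPM in differentiated 6 and to between 1325 and 2179 CPM in the other 7 differentiated libraries. They summed to 1214 CPM in BCAM high 6 and to between 80.3 and 126 CPM in the other 7 BCAM high libraries. These are the libraries with the highest Chil1 and Chia1 of their groups, 411 and 383 CPM in differentiated 6 and 43.6 and 48.6 CPM in BCAM high 6. Sftpc, the defining gene of alveolar type 2 cells, had 4135 and 444 CPM there. Sftpd is in this list and also among the 12 secretory genes. In differentiated cells of batch 1 it had a median of 978 CPM, where the list had 1603 CPM. In differentiated cells of batch 2 Sftpd had 500 CPM or less. The part of other cells in these values was not tested. Chil4, at 2790 CPM, was the lowest of its batch and group in differentiated 6.

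**Figure D5:**
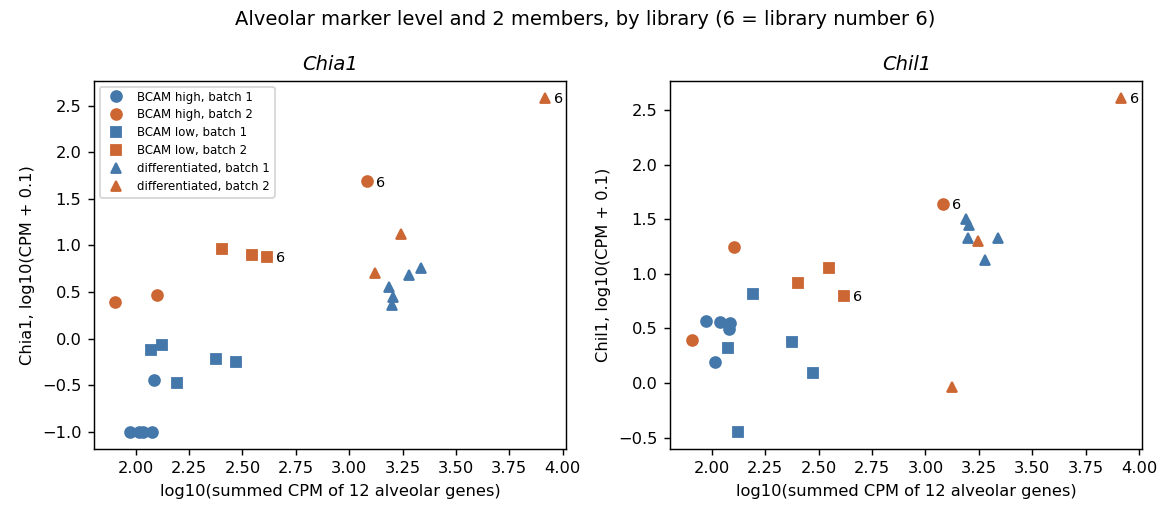
Chil1 and Chia1 as log10(CPM + 0.1) against log10 of the summed CPM of 12 alveolar genes, 1 point per library, coloured by group and batch. The libraries numbered 6 of differentiated (summed 8238 CPM) and of BCAM high (1214 CPM) hold the highest Chil1 and Chia1 of their groups.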

How the data were processed

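One table per library was used, with every transcript's estimated count and TPM as deposited by the authors. Per the submitters' processing notes, the tools were kallisto 46.1 and Picard with build GRCm39; the sources used here do not give the index or options. The deposited estimated counts were not normalized, and the deposited TPM are scaled for transcript length and library by the authors. Transcripts were matched by identifier without version to GENCODE M21 (GRCm38), which supplied symbols and coordinates, so coordinates are not those of the authors' build. Of 117497 transcripts 116374 matched, and the others held 0.317% to 0.594% of a library's counts and were left out. Counts were summed per gene, and per transcript for the members, and rounded for the fit.

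The test was edgeR 4.0.16 (R 4.3.3), with TMM scaling, filterByExpr by group, a robust quasi-likelihood fit of group and batch on all 24 libraries, and Benjamini-Hochberg adjustment over the 12211 genes kept; it was tested on simulated data. The members, lists and alternatives were chosen with earlier results of these data known, so the members' differences carry no test. Standard errors are the log2 difference over the root of its F value. CPM for the similarity of genes was on the log2 scale with a prior count of 2. The genes named are the members; for each member the 5 genes of highest r over all libraries and 3 after subtraction, of mean CPM 10 or more, predicted genes left out; up to 5 called genes of each list and comparison by size; and the defining genes of the lists. Dbp, Sftpc, Csf1r, Siglecf, Gm6522 and the alveolar list were named after their values were seen. Alternatives were DESeq2 1.42.0 scaling and its Wald test, no filter, limma 3.58.1 on log2(TPM + 0.1) and log2(TPM + 1), each batch alone, the replicate number as a block, leaving out each library in turn, Chil3 and Chil4 summed, and, chosen after seeing the data, leaving out the libraries numbered 5. Amplified reads carry no molecular identifiers, so counts are not independent molecules. Reads that fit several near-identical genes are divided by estimate, so such counts are uncertain.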

Additional observations from a re-analysis of the deposited data

Results flagged for a closer look

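Libraries far from the others of their group were looked for in each member, over all 8 libraries of a group and over its 5 libraries of batch 1, with Dixon's test at 95% (24 such sets in all). The set of Chil3 in differentiated cells of batch 1 was at 0 throughout and could not be tested. In all, 12 sets were marked. The nominal rate of 1 in 20 assumes independent, normally spread values, which does not hold here. The sets of 8 libraries span both batches and hold the batch 1 set again, and the members were chosen with their values known. The number marked is therefore not read as a result. For Chil4 the library numbered 5 stood apart in batch 1 of every group, at 179 CPM for BCAM high, 49.0 CPM for BCAM low and 110 CPM for differentiated, where the nearest other libraries had 0.979, 2.27 and 8.44 CPM. Over all 8 differentiated libraries, number 8 stood apart at 11983 CPM, above the next value of 3291. For Chil3, BCAM low 1 stood apart at 106 CPM both over all 8 libraries and within batch 1.

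For Chil1, library 6 stood apart in BCAM high at 43.6 CPM and in differentiated at 411 CPM, and in batch 1 BCAM high 3 was marked for a low value of 1.47 CPM. For Chia1, library 6 stood apart in BCAM high at 48.6 CPM and in differentiated at 383 CPM. BCAM high 2, at 0.263 CPM, was marked because the other 4 libraries of its batch had 0, and this value is 1 count.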

How the results depend on the processing

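No label says what the replicate numbers share. Deviations of same-numbered libraries from their group means correlated at r = 0.04 to 0.29 (median 0.15), so not every pair passed 0.1 and the numbers were not taken as pairs. The data held a hint that a number may mark a shared source. Of 24 libraries, 9 correlated best with their own number in both other groups, and 13 of 24 did once batch was also subtracted. A shared source was not tested. The batch test treats all 24 libraries as independent, and its p-values would be too small if same-numbered libraries shared a source. With the replicate block, pathway calls were 9, 22 and 19 for BCAM high against BCAM low, BCAM high against differentiated and BCAM low against differentiated, and Reg3g lost its call between the BCAM groups. The member differences that moved with the block were, for BCAM high from BCAM low, Chil4 -0.40, Chil3 -1.33 and Chia1 -0.76, and for BCAM low from differentiated, Chia1 -2.21.

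Between the BCAM groups, Chil4 had the opposite sign with limma on log2(TPM + 0.1) at -0.34 and log2(TPM + 1) at -0.029, in batch 2 alone at -0.69, without the libraries numbered 5 at -0.68 and summed with Chil3 at -0.24. Chia1 did so with the DESeq2 Wald test at -0.61 and with limma at -1.33 and -0.36. Chil3 was -1.20 with limma on log2(TPM + 1) and -0.24 in batch 2 alone. With that limma fit the differences of BCAM high from differentiated were -1.16 for Chil1 and -1.36 for Chia1, and those of BCAM low were 2.85 for Chil3 and -0.99 for Chia1, or -1.51 with the smaller pseudocount. Chil4 in BCAM low was -1.25 from differentiated in batch 1 alone, and Chil3 was 2.93 in batch 2 alone. The batch difference was 13.82 for Chil4 and 5.11 for Chil3 with limma on log2(TPM + 0.1), 14.25 for Chil4 without the libraries numbered 5, and 2.64 for Chia1 with log2(TPM + 1).

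Leaving out 1 library at a time, the batch differences ran from 9.89 to 11.97 for Chil4, 2.51 to 5.12 for Chil3, 1.58 to 2.70 for Chil1 and 4.16 to 5.48 for Chia1. Between the BCAM groups the ranges were -1.45 to 1.02 for Chil4, -3.66 to -0.55 for Chil3, 0.30 to 1.19 for Chil1 and -1.91 to 0.82 for Chia1. From differentiated they were, in BCAM high, -1.85 to 3.04, 1.91 to 3.05, -3.31 to -1.83 and -5.51 to -2.00 for Chil4, Chil3, Chil1 and Chia1, and in BCAM low -0.40 to 2.27, 3.21 to 6.05, -4.03 to -2.69 and -4.04 to -2.29. Called pathway genes ran from 16 to 21 between batches.

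In batch 2 alone, called pathway genes were 6 between the BCAM groups and 7 for BCAM low against differentiated, and of the IL-13 response list 7 for BCAM high and 1 for BCAM low against differentiated. Called genes among all tested also fell in batch 2 alone, from 857 to 543 between the BCAM groups, from 5044 to 3664 for BCAM high and from 4086 to 2221 for BCAM low against differentiated. The IL-13 count for BCAM low was 5 with limma on log2(TPM + 1) and 5 without the libraries numbered 5. In batch 2 alone, BCAM low was above differentiated for Agr2 (0.13), Alox15 (0.63), Fcgbp (0.97), Muc5ac (0.40), Reg3g (0.26) and Spdef (0.12). On the TPM scales Il4ra was 0.11 and 0.10 for BCAM high against differentiated, and Cd44 was 0.10 and 0.10 between batches. The cause of these changes was not tested.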
